A study of Mus musculus with 8 samples.

Results

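The Hedgehog ligands, receptors and Gli factors were described in enteric neural crest–derived cells (ENCDCs) and in the other cells of the fetal mouse bowel. The members were named as a list of 9 genes (*Shh*, *Ihh*, *Dhh*, *Ptch1*, *Smo*, *Gli1*, *Gli2*, *Gli3* and *Hhip*) and not chosen by a threshold on any measured value. All 9 were among the 29092 genes of the mRNA count table, and all 9 were among the 18866 genes that passed the filter on low counts. Bowels from stomach to anus were taken at E13.5 from *Ednrb-EGFP* embryos, the offspring of heterozygous *Ednrb-EGFP* and wild-type C57BL/6J mice, whose genotype label is wild-type. Every library, in both groups, came from bowel with this reporter, which marks cells by the activity of *Ednrb*, the gene of the endothelin receptor type B. Cell sorting gave GFP+ cells (ENCDCs, 4 libraries) and GFP- cells (gut cells, 4 libraries), so that the gut libraries are a mixture of all bowel cells without the reporter. RNA of several sorts was pooled where needed to reach 750 pg for a library, so the p-values measure the spread between these libraries, which may be partly technical.

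Hedgehog proteins are secreted signals that carry lipid groups. A ligand binds Patched, which otherwise holds the membrane protein Smoothened inactive at the primary cilium, and active Smoothened changes the processing of the Gli transcription factors so that target genes are switched on. In the developing bowel *Shh* and *Ihh* are known as signals of the epithelium that act on the surrounding mesenchyme and smooth muscle, while *Dhh* is known as a signal of Schwann cells. *Ptch1*, *Gli1* and *Hhip* are themselves target genes, and their mRNA levels are commonly read as a sign of pathway activity.

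Each library held 13250893 to 13267220 counts. *Ednrb* had 34098 to 40395 counts in the ENCDC libraries and 2441 to 2762 in the gut libraries, which follows from the sort. The label of each group was checked against markers: all 13 genes of a list of enteric neural crest and neuron markers were higher in ENCDCs, and 65 of 75 tested markers of epithelium, mesenchyme, smooth muscle, endothelium, mesothelium and macrophages were lower (edgeR, adjusted p below 0.05). ENCDC replicate 3 stood apart from the other ENCDC libraries. Its score on the second principal component was -116.43, against 31.42 to 43.78 in the other 3, and it had 17953 genes with a count above 0 against 19123 to 20070. Results for the members are therefore given with and without this library. In bulk libraries such as these, fewer cells of a type and less RNA per cell cannot be told apart.

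ENCDCs had less mRNA of 8 of the 9 members than gut cells did, and more of 1, *Dhh* (edgeR quasi-likelihood test, Benjamini-Hochberg adjusted over all tested genes, adjusted p below 0.05). Over all tested genes, 37.9% were called, 20.9% lower and 17.0% higher. The median log2 fold change of the members was -2.05, against -0.04 over all tested genes. Without ENCDC replicate 1 or without gut replicate 3, 5 members were called lower, and among the fits that left out 1 library *Dhh* kept its call only without ENCDC replicate 1 or 4. The groups did not overlap in 7 members, against 38.2% of all tested genes. In 6 of them every ENCDC library lay below every gut library, which held for 21.3% of all tested genes. In *Dhh* every ENCDC library lay above every gut library in normalized counts, which held for 16.9%, and in *Ihh* and *Smo* the groups overlapped.

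**Figure D1:**
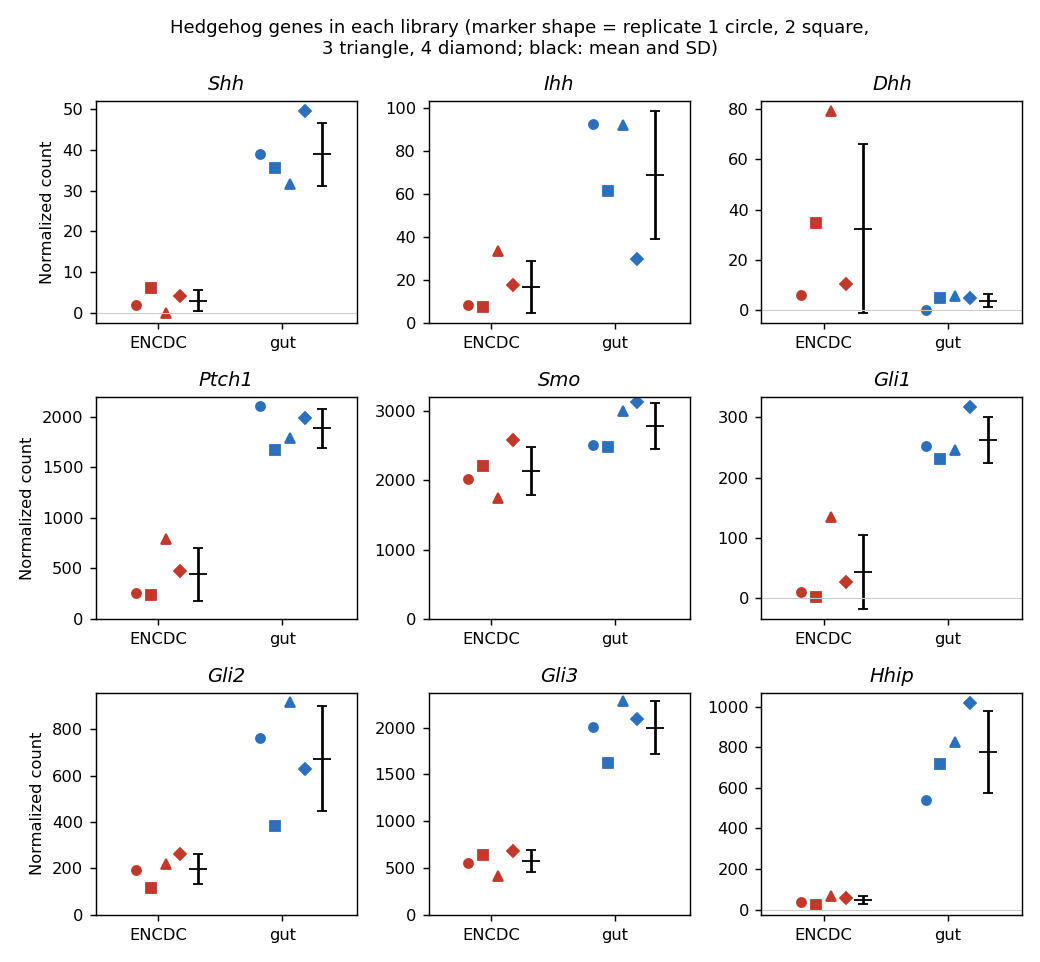
Normalized count of each of the 9 members (vertical axis, scaled for each gene) in the 4 ENCDC and the 4 gut libraries, with points for libraries and the mean and SD of each group beside them. The groups are separate for every member except *Ihh* and *Smo*, and ENCDC replicate 3 is the highest ENCDC library for *Ihh*, *Dhh*, *Ptch1*, *Gli1* and *Hhip*.

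Among the ligands, *Shh*, the Hedgehog protein that patterns limb, neural tube and gut, was nearly absent from ENCDCs. The gene lies at chr5:28456815-28467256 on the minus strand (mm10). *Shh* had 2, 6, 0 and 4 counts in ENCDC replicates 1 to 4 and 40, 36, 32 and 50 in gut replicates 1 to 4. The ENCDC libraries were all low and the gut libraries all higher, although the gene was of low abundance in both groups. A count of 0 in ENCDC replicate 3 allows up to 3 counts. Its normalized count was 3.07 ± 2.63 (SD, n = 4) in ENCDCs and 38.8 ± 7.70 (n = 4) in gut cells, a log2 fold change of -3.61 (SE 0.81, edgeR adjusted p = 0.0047). It was -3.21 when ENCDC replicate 3 was left out (edgeR adjusted p = 0.0016).

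*Ihh*, which is known in bone growth and in the gut epithelium, was also lower in ENCDCs (chr1:74945315-74951672, minus strand). *Ihh* had 8, 7, 33 and 17 counts in ENCDC replicates 1 to 4 and 95, 62, 93 and 30 in gut replicates 1 to 4. The highest ENCDC library, replicate 3, lay just above the lowest gut library, replicate 4. Its normalized counts averaged 16.5 ± 12.1 and 68.7 ± 29.8 (SD, n = 4 each), and the log2 fold change was -2.05 (SE 0.61, edgeR adjusted p = 0.021). It was -2.64 without ENCDC replicate 3 (edgeR adjusted p = 0.00343). It no longer passed when ENCDC replicate 1 (adjusted p = 0.0526), gut replicate 1 (adjusted p = 0.0628) or gut replicate 3 (adjusted p = 0.0617) was left out, with a log2 fold change of -1.83 to -1.88.

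Epithelial markers were detected in the ENCDC libraries too. Of 18 epithelial markers 14 were lower in ENCDCs, 4 were not called, and the summed level of the list was 28.2 to 50.6 CPM in ENCDCs and 239 to 365 CPM in gut cells. The median marker stood at 11.3%, 12.7%, 12.1% and 9.31% of its mean gut level in ENCDC replicates 1 to 4. *Shh* stood at 5.23%, 15.7%, 0% and 10.6% of its mean gut level in the same libraries, and *Ihh* at 11.8%, 10.4%, 48.2% and 25.6%. In ENCDC replicates 1 and 2 *Ihh* was thus near the median marker, and in replicates 3 and 4 it was above it. *Foxa2*, a transcription factor of gut epithelium, had 4, 6, 0 and 0 counts in ENCDC replicates 1 to 4. It was low in gut cells too, with 29, 16, 53 and 12 counts in gut replicates 1 to 4. *Epcam*, the epithelial marker with the highest mean in gut cells, had 91, 138, 92 and 143 counts in ENCDC replicates 1 to 4. The part of these transcripts in the *Shh* and *Ihh* counts was not tested.

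*Dhh*, the ligand known from Schwann cells, peripheral nerve sheaths and testis, was the one member with a higher level in ENCDCs (chr15:98891152-98898540, minus strand). *Dhh* had 6, 34, 79 and 10 counts in ENCDC replicates 1 to 4 and 0, 5, 6 and 5 in gut replicates 1 to 4. ENCDC replicate 1 and gut replicate 3 had the same count, so the groups were separate only after scaling (6.09 against 5.92 normalized counts), while ENCDC replicate 3 lay far above. The normalized counts were 32.6 ± 33.6 and 3.95 ± 2.67 (SD, n = 4 each), which is 8.25 times as much in ENCDCs. The log2 fold change was 3.01 (SE 1.03, edgeR adjusted p = 0.0395).

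This call rested on few counts and on single libraries. Leaving out ENCDC replicate 3 gave *Dhh* a log2 fold change of 2.07, and the call was lost (edgeR adjusted p = 0.117). It was also lost without ENCDC replicate 2 (log2 fold change 2.98, adjusted p = 0.0674) and without each of gut replicates 1 to 4, where edgeR gave adjusted p values of 0.0687, 0.0817, 0.0694 and 0.0762. In the count table the *Dhh* interval ends short of the annotated gene, so reads beyond it may be missing from these counts. Glial and Schwann cell precursor markers were higher in ENCDCs for 9 of 11 tested genes (17.0% over all tested genes). Their list summed to 1179 to 1467 CPM in ENCDCs and 38.8 to 67.4 CPM in gut cells. The other 2, *Gfap* and *Pou3f1*, had log2 fold changes of -2.02 and -0.87 and were not called. The median marker stood at 1780%, 2150%, 1250% and 1680% of its mean gut level in ENCDC replicates 1 to 4. It was lowest in replicate 3, where *Dhh* was highest. Any link of these markers to the *Dhh* level was not tested.

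At the receptor, *Ptch1*, which encodes the Hedgehog receptor and is itself induced by the signal, was lower in ENCDCs (chr13:63508328-63573598, minus strand). *Ptch1* had 253, 230, 793 and 464 counts in ENCDC replicates 1 to 4 and 2166, 1702, 1811 and 2009 in gut replicates 1 to 4. All ENCDC libraries were below all gut libraries, and ENCDC replicate 3 was the highest of its group. Normalized counts averaged 441.5 ± 261 and 1889 ± 193 (SD, n = 4 each), and the log2 fold change was -2.10 (SE 0.33, edgeR adjusted p = 4.93e-04). Without ENCDC replicate 3 it was -2.55 (edgeR adjusted p = 4.27e-06).

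*Smo*, which encodes the transducer Smoothened, differed least between the groups among the members (chr6:29735503-29761365, plus strand). *Smo* had 1985, 2169, 1735 and 2494 counts in ENCDC replicates 1 to 4 and 2585, 2525, 3042 and 3167 in gut replicates 1 to 4. The counts were lower in every ENCDC library, but after scaling ENCDC replicate 4 (2576 normalized counts) lay above gut replicates 1 and 2 (2511 and 2486). The normalized counts were 2135 ± 350.4 and 2783 ± 333.6 (SD, n = 4 each), so that ENCDCs had 76.7% of the gut level. The log2 fold change of -0.38 (SE 0.13) was called with an edgeR adjusted p of 0.0391. It was not called without ENCDC replicate 1, 2 or 3 (adjusted p = 0.0919, 0.0632 and 0.0655) and without gut replicate 3 or 4 (adjusted p = 0.102 and 0.113), with log2 fold changes from -0.40 to -0.30.

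*Hhip*, a membrane protein that binds and sequesters the ligands and a target gene of the pathway, had the lowest log2 fold change of the members with all libraries in the fit (chr8:79965851-80058006, minus strand). *Hhip* had 39, 23, 66 and 56 counts in ENCDC replicates 1 to 4 and 557, 729, 839 and 1031 in gut replicates 1 to 4. No ENCDC library came near the lowest gut library. Group means of the normalized counts were 46.8 ± 19.2 and 777 ± 201 (SD, n = 4 each), with a log2 fold change of -4.05 (SE 0.32, edgeR adjusted p = 2.74e-06), and -4.27 without ENCDC replicate 3 (edgeR adjusted p = 9.04e-07). Without ENCDC replicate 3 *Gli1* was lower still (-4.32), and without ENCDC replicate 2 *Shh* was (-4.17, against -3.83 for *Hhip*).

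The 3 Gli factors, the transcription factors at the end of the pathway, were all lower in ENCDCs. *Gli1*, an activator whose own transcription responds to the signal (chr10:127329882-127341974, minus strand), had 10, 2, 134 and 26 counts in ENCDC replicates 1 to 4 and 260, 235, 249 and 321 in gut replicates 1 to 4. Both groups were separate, but ENCDC replicate 3 was 5.01 times as high as the next ENCDC library. Mean normalized counts were 43.4 ± 61.6 and 262 ± 38.3 (SD, n = 4 each), and the log2 fold change was -2.59 (SE 0.81, edgeR adjusted p = 0.0272).

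*Gli1* depended on single libraries in both directions. Without ENCDC replicate 3 its log2 fold change was -4.32 (edgeR adjusted p = 5.49e-05), and its ENCDC level moved from 16.6% to 4.97% of the gut level. It missed the threshold without ENCDC replicate 1 or 4 (edgeR adjusted p = 0.0598 and 0.0633) and without gut replicates 1, 2, 3 or 4 (edgeR adjusted p = 0.0537, 0.0527, 0.0536 and 0.0631), all of which left ENCDC replicate 3 in the fit. The kit did not mark strand, and *Gli1* shares 327 exon bases with the genes *Arhgap9* and *Gm47200* on the opposite strand, so reads from this stretch cannot be told apart. *Arhgap9* had 0, 0, 34 and 0 counts in ENCDC replicates 1 to 4 and 210, 177, 118 and 86 in gut replicates 1 to 4. It was thus detected in the same ENCDC library in which *Gli1* was high, and its part in the *Gli1* counts was not tested.

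*Gli2*, known as the main activator of the pathway (chr1:118834132-119053619, minus strand), had 192, 112, 218 and 256 counts in ENCDC replicates 1 to 4 and 784, 388, 930 and 635 in gut replicates 1 to 4. The gut libraries varied over a wide range, yet the lowest was above the highest ENCDC library. The normalized counts were 198 ± 63.1 and 672.5 ± 227 (SD, n = 4 each), and the log2 fold change was -1.76 (SE 0.30, edgeR adjusted p = 8.44e-04).

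*Gli3*, known mainly as a repressor in its processed form (chr13:15463235-15730026, plus strand), had 546, 625, 417 and 661 counts in ENCDC replicates 1 to 4 and 2070, 1643, 2313 and 2112 in gut replicates 1 to 4. Here ENCDC replicate 3 was the lowest of its group, unlike for *Gli1*. *Gli3* shares 188 exon bases with *Gm6556* on the opposite strand, which had 2 to 9 counts in ENCDCs and 17 to 29 in gut cells. The normalized counts were 573 ± 116 and 2000 ± 279 (SD, n = 4 each), with a log2 fold change of -1.80 (SE 0.16, edgeR adjusted p = 8.08e-06). Leaving out ENCDC replicate 3 gave -1.81 for *Gli2* and -1.68 for *Gli3* (edgeR adjusted p = 9.59e-04 and 1.88e-06). *Shh*, *Ptch1*, *Gli2*, *Gli3* and *Hhip* passed the threshold in each of the 15 alternative analyses, whichever library was left out.

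**Figure D2:**
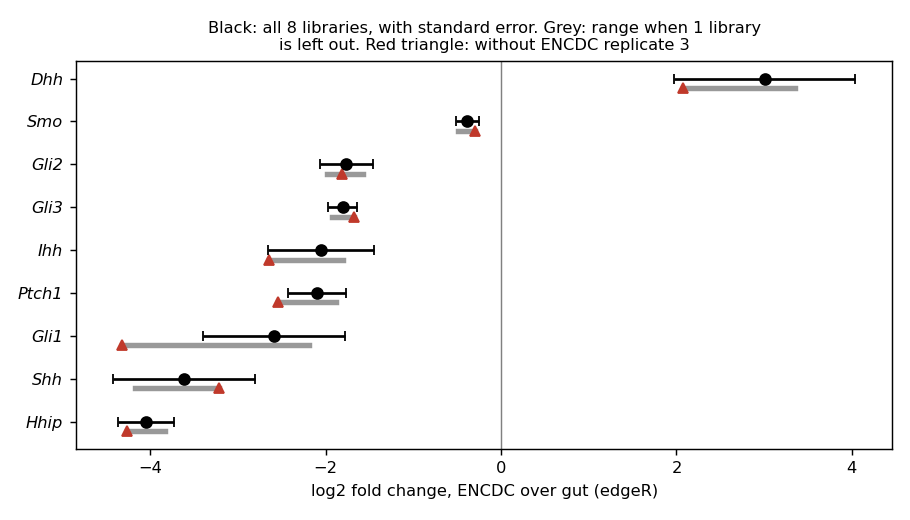
log2 fold change of each member, ENCDC over gut, from edgeR (black point and standard error), the range over fits that each leave out 1 library (grey bar) and the fit without ENCDC replicate 3 (red triangle). *Hhip*, *Gli2* and *Gli3* move little, while *Gli1* runs from -4.32 to -2.19 and *Dhh* from 2.07 to 3.35.

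The start regions of the members the results turn on are shown for the member with the lowest log2 fold change over all libraries (*Hhip*), for the induced receptor (*Ptch1*) and for the one member that was higher (*Dhh*). Each runs from 250 bases before to 50 bases after a RefSeq transcript start (GRCm38.p6), 5′ to 3′ on the gene's strand, with CG pairs in capitals. They lie on the minus strand at chr8:80057959-80058258 (*Hhip*), chr13:63565686-63565985 (*Ptch1*, a start inside the annotated gene) and chr15:98898491-98898790 (*Dhh*).
Hhip: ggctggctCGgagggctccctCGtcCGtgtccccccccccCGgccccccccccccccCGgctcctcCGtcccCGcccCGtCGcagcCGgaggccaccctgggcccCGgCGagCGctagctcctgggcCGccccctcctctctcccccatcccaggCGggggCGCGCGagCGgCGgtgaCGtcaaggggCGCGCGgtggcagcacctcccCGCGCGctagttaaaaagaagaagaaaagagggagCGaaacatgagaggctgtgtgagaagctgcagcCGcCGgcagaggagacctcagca
Ptch1: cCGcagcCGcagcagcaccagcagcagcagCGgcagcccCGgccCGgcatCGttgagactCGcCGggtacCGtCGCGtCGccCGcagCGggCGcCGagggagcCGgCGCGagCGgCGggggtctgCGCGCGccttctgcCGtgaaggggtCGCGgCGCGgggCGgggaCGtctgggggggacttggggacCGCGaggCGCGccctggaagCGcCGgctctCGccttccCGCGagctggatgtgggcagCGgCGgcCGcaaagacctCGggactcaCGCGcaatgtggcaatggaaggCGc
Dhh: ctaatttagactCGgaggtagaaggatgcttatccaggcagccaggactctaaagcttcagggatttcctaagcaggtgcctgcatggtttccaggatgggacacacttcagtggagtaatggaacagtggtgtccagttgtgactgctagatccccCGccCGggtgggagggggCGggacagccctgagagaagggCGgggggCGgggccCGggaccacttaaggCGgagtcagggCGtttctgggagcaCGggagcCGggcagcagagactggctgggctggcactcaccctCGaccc
These windows held 30 CG pairs in *Hhip*, 47 in *Ptch1* and 12 in *Dhh*, against a median of 7 over 32851 mouse promoters of the same length. RefSeq promoters matched 7 of the 9 members, all but *Shh* and *Gli1*. The other members had 39 (*Gli3*), 30 (*Ihh*), 28 (*Gli2*) and 17 (*Smo*) CG pairs, so *Dhh* had the fewest of the 7. The Gli binding motif GACCACCCA, searched on both strands, was in none of the 7 windows and in 0.253% of all promoters, and its core GACCACC, which lies within the longer motif, was in none of the 7 and in 2.8% of all promoters. No match says only that these letters are not in these windows.

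Levels of different genes were compared as CPM per kilobase of exon. In ENCDCs *Smo* was the most abundant member at 28.6 ± 4.70 (SD, n = 4), at the 88.1 percentile of all tested genes, and it did not overlap with *Gli3*, the next in order, at 4.505 ± 0.91. *Ptch1* (2.35 ± 1.39), *Gli2* (2.17 ± 0.69), *Dhh* (0.975 ± 1.005), *Gli1* (0.655 ± 0.93), *Ihh* (0.408 ± 0.30) and *Hhip* (0.389 ± 0.16) followed, and each of these overlapped with the next in order, as *Gli3* did with *Ptch1*. *Shh* was last at 0.0812 ± 0.070 and lay below every *Hhip* value.

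Gut cells also had *Smo* (37.35 ± 4.48) and *Gli3* (15.7 ± 2.20) as their most abundant members per length, followed by *Ptch1* (10.04 ± 1.03), *Gli2* (7.38 ± 2.49), *Hhip* (6.455 ± 1.67), *Gli1* (3.95 ± 0.58), *Ihh* (1.70 ± 0.74), *Shh* (1.03 ± 0.20) and *Dhh* (0.118 ± 0.080). Neighbours that did not overlap there were *Smo* and *Gli3*, *Gli3* and *Ptch1*, *Gli1* and *Ihh*, and *Shh* and *Dhh*. Among the ligands *Dhh* was thus first by mean in ENCDCs and last in gut cells, although in ENCDCs its range overlapped with that of *Ihh*. *Ihh* was above *Dhh* in ENCDC replicate 1 (0.201 against 0.182) and in ENCDC replicate 4 (0.4345 against 0.309). Without ENCDC replicate 3, *Gli1* fell to 0.196 per kilobase and stood below *Hhip* and *Ihh* in the ENCDC order.

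**Figure D3:**
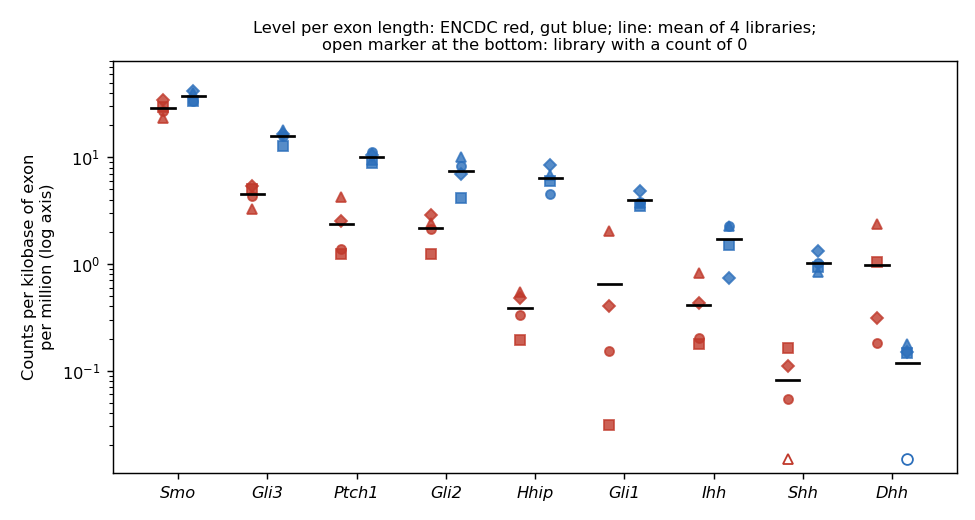
Level of each member as CPM per kilobase of exon (log axis) in ENCDC (red) and gut (blue) libraries, with lines at the means of 4 libraries and open markers at the bottom for libraries with a count of 0. *Smo* is at the top in both groups, and *Dhh* is the one gene whose red points lie above the blue ones.

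Ratios of members within a library do not depend on its depth. *Ptch1* stood at 0.0505, 0.042, 0.181 and 0.0737 of the *Smo* level per kilobase in ENCDC replicates 1 to 4 and at 0.332, 0.267, 0.236 and 0.251 in gut replicates 1 to 4. The target receptor was therefore lower relative to the transducer in every ENCDC library. *Gli1* stood at 0.0352, 0.00614, 0.617 and 0.0755 of the *Gli3* level per kilobase in ENCDC replicates 1 to 4 and at 0.241, 0.275, 0.207 and 0.292 in gut replicates 1 to 4. Here 3 ENCDC libraries were below all gut libraries and ENCDC replicate 3 was above all of them. The *Gli2* to *Gli3* ratio, 0.25 to 0.73 in ENCDCs and 0.33 to 0.561 in gut cells, overlapped between groups.

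Markers of mesenchyme and smooth muscle, the cells known to respond to Hedgehog in the bowel, were also detected in the ENCDC libraries. The median of each list was highest in replicate 3, although single markers such as *Dcn* and *Prrx1* were not. Of 17 mesenchyme markers 16 and of 11 smooth muscle markers 11 were lower in ENCDCs. Summed over the mesenchyme list, levels were 380 to 1981 CPM in ENCDCs and 13220 to 17510 CPM in gut cells. For smooth muscle they were 174 to 883 CPM and 4126 to 5139 CPM. *Dpt*, the mesenchyme marker that was not called, was nearly absent from both groups. It was at 0 in all ENCDC libraries and had 6, 0, 1 and 9 counts in gut replicates 1 to 4. The median mesenchyme marker stood at 4.83%, 2.51%, 13.2% and 3.04% of its mean gut level in ENCDC replicates 1 to 4, and the median smooth muscle marker at 6.33%, 3.83%, 17.8% and 2.5%.

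Read against these lists, the members fell into different ranges. *Hhip* stood at 5.10%, 3.01%, 8.53% and 7.45% of its mean gut level in ENCDC replicates 1 to 4, within the span of the markers. *Gli1* stood at 3.88%, 0.777%, 51.4% and 10.3% and *Ptch1* at 13.6%, 12.4%, 42.1% and 25.4%. Of the 28 mesenchyme and smooth muscle markers, 23, 27, 1 and 6 reached the percent of *Gli1* in ENCDC replicates 1 to 4, so that *Gli1* was below most markers in replicates 1 and 2 and above nearly all in replicate 3. For *Ptch1* 3, 4, 1 and 2 of the 28 markers were as high, and for *Hhip* 16, 16, 22 and 6.

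*Gli3* kept 27.7%, 31.8%, 20.9% and 34.1% of its mean gut level in ENCDC replicates 1 to 4, where 1, 2, 5 and 2 of the 28 markers were as high. *Gli2* kept 29.0%, 16.9%, 32.5% and 39.3%, where 1, 3, 2 and 2 of the 28 markers were as high. *Smo* kept 62.6% to 92.5%, and none of the 28 markers was as high in replicates 1, 2 and 4. The part of RNA from these other cells in the members' ENCDC levels was not tested.

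**Figure D4:**
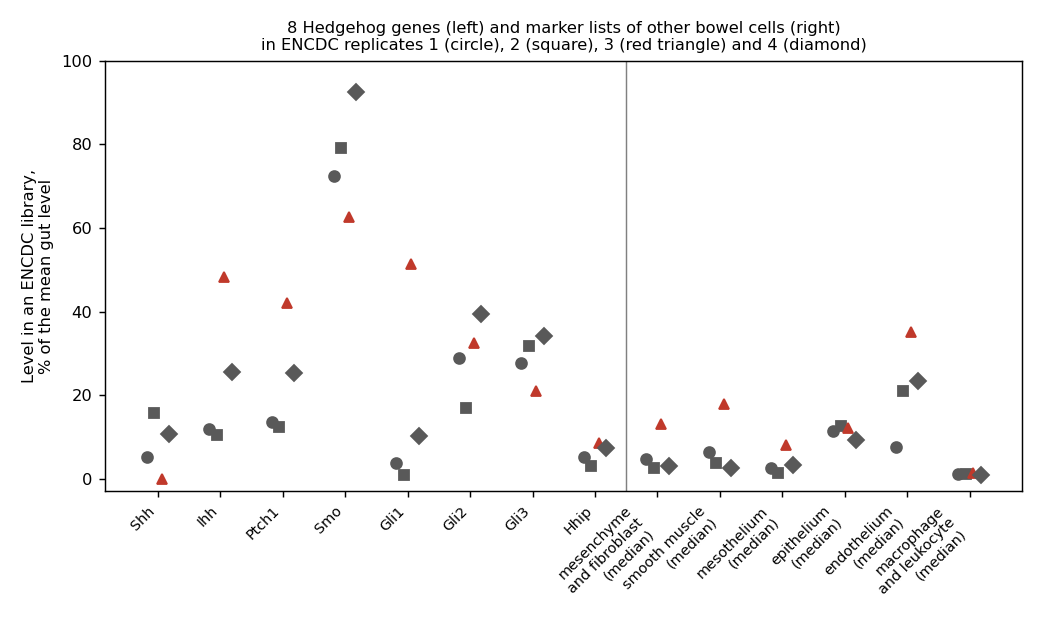
Level in each ENCDC library as a percent of the mean gut level for 8 members (left, without *Dhh*, which exceeds 100%) and for the medians of the marker lists of other bowel cells (right), with a separate symbol for each replicate. The red triangles of ENCDC replicate 3 stand at 51.4%, 48.2% and 42.1% for *Gli1*, *Ihh* and *Ptch1*. For the 6 list medians they run from 1.48% (macrophage and leukocyte) to 35.0% (endothelium), with mesenchyme at 13.2% and smooth muscle at 17.8%.

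The wider pathway was read in 5 lists with 95 genes, of which 91 were tested. In ENCDCs 39 were lower and 11 were higher, against 20.9% lower and 17.0% higher over all tested genes. Their median log2 fold change was -0.45. Without gut replicate 3, 37 were lower and 7 were higher. Of 8 other receptors and co-receptors tested, 6 were lower (20.9% over all tested genes) and 2 were not called, with a median of -2.23. The ligand-binding co-receptors *Gas1* (log2 fold change -1.62, edgeR adjusted p = 5.24e-07) and *Boc* (-3.30, adjusted p = 1.02e-04) were lower, as were the glypicans *Gpc3* (-2.39, adjusted p = 5.91e-07) and *Gpc4* (-4.26, adjusted p = 2.62e-05). *Cdon*, the co-receptor related to *Boc*, was lower as well at -1.80 (edgeR adjusted p = 0.00903).

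The list of ligand lipidation and release was mixed, with 3 of 8 tested genes lower and 2 higher (20.9% and 17.0% over all tested genes). *Disp2*, a relative of the ligand exporter *Disp1*, had 406, 481, 91 and 511 counts in ENCDC replicates 1 to 4 and 29, 20, 29 and 4 in gut replicates 1 to 4. It was higher in ENCDCs at a log2 fold change of 4.23 (edgeR adjusted p = 2.85e-04), and its relative *Disp3* at 4.34 (edgeR adjusted p = 0.00112). *Disp1* itself was not called (log2 fold change -0.48, edgeR adjusted p = 0.236), nor was *Hhat*, the acyltransferase that adds palmitate to the ligands (-0.57, adjusted p = 0.215). The secreted release factors *Scube2* and *Scube3* were lower, at -4.69 and -2.03 (edgeR adjusted p = 0.00674 and 2.01e-04), and *Hhatl*, a relative of *Hhat*, had 1 count in all ENCDC libraries together.

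Of 25 tested genes of the signal relay between *Smo* and the Gli factors, 4 were higher, 4 were lower and 17 were not called, near the 37.9% called over all tested genes. The median log2 fold change was -0.01, against -0.04 over all tested genes. *Sufu*, the inhibitor that binds Gli proteins, had a log2 fold change of -0.21 (edgeR adjusted p = 0.204) and the ciliary kinesin *Kif7* one of 0.10 (edgeR adjusted p = 0.768). *Kif7* shares 928 exon bases with *Ticrr* and *9330171B17Rik* on the opposite strand. These neighbours averaged up to 540 counts over all libraries, against 215 to 373 counts for *Kif7* in single libraries. Their part in the *Kif7* counts was not tested. The kinases *Csnk1e* (1.07, adjusted p = 3.89e-05) and *Gsk3b* (0.66, adjusted p = 0.00401) were higher, and the beta-arrestin *Arrb1* (-1.22, adjusted p = 0.00157), the ciliary protein *Evc2* (-0.66, adjusted p = 0.00268) and the protein kinase A subunit *Prkar2b* (-0.75, adjusted p = 0.00443) were lower.

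The other calls of the relay depended on single libraries. *Prkaca*, the catalytic subunit of protein kinase A, was higher at 0.28 (edgeR adjusted p = 0.0187) but lost the call without gut replicate 1 or 3, with adjusted p up to 0.0547. *Arrb2* was higher at 0.61 (edgeR adjusted p = 0.0352) and lost the call without ENCDC replicate 2 or 4 or gut replicate 2, 3 or 4, with adjusted p up to 0.0976. *Evc* was lower at -0.49 (edgeR adjusted p = 0.0243) and lost the call without ENCDC replicate 2 or gut replicate 1 or 3, with adjusted p up to 0.0793.

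Of 29 tested genes of the primary cilium, the organelle in which Smoothened acts, 9 were lower, 2 were higher and 18 were not called. The share called in either direction was that over all tested genes (37.9%, with 20.9% lower and 17.0% higher), but most calls here were lower. The median was -0.34. *Rab34*, a small GTPase of cilium formation, was lower at -1.59 (edgeR adjusted p = 5.47e-06), and the transport protein genes *Ift122* and *Ift80* at -0.62 and -0.92 (edgeR adjusted p = 0.0167 and 0.021). *Ift80* lost the call without gut replicate 1 (edgeR adjusted p = 0.0633). The higher genes were *Kif3a*, a motor of ciliary transport (0.45, edgeR adjusted p = 0.0233), and *Bbs4* (0.56, edgeR adjusted p = 0.0492). *Kif3a* lost the call without ENCDC replicate 1 or 2 or gut replicate 1, 3 or 4 (adjusted p up to 0.0658), and *Bbs4* without ENCDC replicate 1, 2 or 4 or gut replicate 2, 3 or 4 (adjusted p up to 0.156). *Bbs4* shares 194 exon bases with *Adpgk* on the opposite strand.

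The list of genes known to respond to Hedgehog in gut or limb had the direction of the target genes among the members. Of 21 tested genes, 17 were lower and 3 were higher, against 20.9% and 17.0% over all tested genes. The median log2 fold change was -4.17, the lowest of the 5 lists. *Foxf1*, a forkhead factor of gut mesenchyme, had 238, 146, 720 and 92 counts in ENCDC replicates 1 to 4 and 6876, 5863, 6303 and 7276 in gut replicates 1 to 4. Its log2 fold change was -4.42 (edgeR adjusted p = 6.16e-05), and the secreted proteins *Wnt5a* (-2.84, adjusted p = 2.81e-05) and *Tgfbi* (-4.61, adjusted p = 1.24e-04) were lower too, as was the cell cycle gene *Ccnd2* (-0.997, adjusted p = 8e-05). *Bmp4*, a signal that mesenchyme makes in response to Hedgehog, was lower at -4.71 (edgeR adjusted p = 5.75e-06). *Hoxd13*, a homeobox gene of hindgut and limb, had no count in any ENCDC library and 393 in the gut libraries together, at least 131-fold lower against a floor of 3 counts over the group.

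The 3 genes of this list that went the other way are also known in proliferating neural progenitors. Whether this bears on their ENCDC levels was not tested. *Ccnd1*, a D-type cyclin, had 2661, 2499, 2014 and 1874 counts in ENCDC replicates 1 to 4 and 189, 163, 209 and 216 in gut replicates 1 to 4, a log2 fold change of 3.59 (edgeR adjusted p = 3.29e-08). *Mycn*, a Myc family factor, was higher at 1.81 (edgeR adjusted p = 5.58e-06). *Nr2f1*, a nuclear receptor, was higher at 0.87 (edgeR adjusted p = 0.0264), a call that was lost without ENCDC replicate 1 or gut replicate 1 or 2, with adjusted p up to 0.095. *Ccnd1* shares 1100 exon bases with *LTO1* and *Nr2f1* 123 with *A830082K12Rik*, both on the opposite strand. Many of the lower genes of the list are made by gut mesenchyme, whose markers had the same direction, and how far they follow the signal in these cells was not tested.

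**Figure D5:**
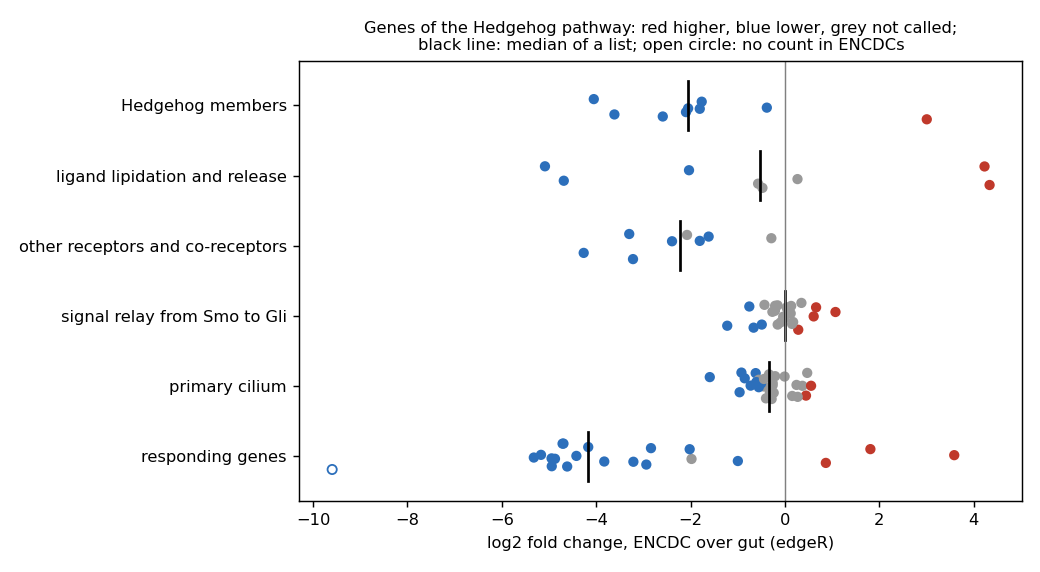
log2 fold change, ENCDC over gut, of the members and of each tested gene in the 5 pathway lists, in red where higher, blue where lower and grey where not called, with a black line at the median of each list and an open circle for a gene with no count in ENCDCs. The relay list is centred at -0.01, while the receptor list and the responding genes have medians of -2.23 and -4.17.

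The genes whose levels were most like those of *Gli1*, *Ptch1* and *Shh* over the 8 libraries were taken from 12142 tested genes that averaged 50 counts or more in gut cells, by Pearson r of log2 CPM. For *Gli1* they were *Pcdh7* (r = 0.987), *Gimap9* (0.986) and *Fat4* (0.986), and in ENCDC replicate 3 these stood at 84.4%, 77.2% and 45.1% of their mean gut level. For *Ptch1* they were *Lcp2* (0.996), *Hacd4* (0.994) and *Myo1c* (0.994). For *Shh* they were *Sfi1* (0.995), *Nek8* (0.993) and *F730043M19Rik* (0.991). With 8 libraries in 2 groups such values rest on the difference between the groups and on ENCDC replicate 3, and they are given as a description.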

How the data were processed

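mRNA libraries of 4 ENCDC and 4 gut samples were analysed. Per the submitters' processing notes, reads were mapped to mm10 and STAR 2.4.2a was used. The authors normalized them with PORT by keeping a subset of reads. The paper used minimum normalized read counts for mRNA, and how these treat reads shared by genes was not tested. The authors deposited these as a table of whole-number counts per gene. Its design text speaks of CPM and small RNAs, but the values are whole numbers that sum to at least 13250893 in each library and were taken as mRNA read counts.

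Genes that averaged 3 counts or more and had counts above 0 in at least 3 libraries of 1 group were tested in R 4.3.3 with edgeR 4.0.16 (TMM factors 0.9677 to 1.0295, two-sided quasi-likelihood F test, Benjamini-Hochberg over all tested genes, threshold 0.05). Normalized counts are counts divided by the scaled TMM library size, and the SE is the log2 fold change divided by the square root of F. Limma 3.58.1 (voom), which the paper used for differential expression, and DESeq2 1.42.0 gave other tests. The code was tested on simulated data. Exon lengths came from GENCODE M21, within the interval of the count table. The members and lists were chosen with earlier results of these data known. All members were named, and in each list the called genes of highest mean count, up to 4 (more where tied), and those against the main direction. *Disp1*, *Hhat*, *Hhatl*, *Cdon*, *Sufu*, *Kif7*, *Foxa2*, *Epcam*, *Bmp4* and *Hoxd13* were chosen after their values were seen.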

Additional observations from a re-analysis of the deposited data

Results flagged for a closer look

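In 5 of 82 groups of 4 libraries, a single library lay outside the range of the other 3 by Dixon's criterion. Chance does this in about 1 in 20 groups of normally distributed values, a rate that need not hold for counts near 0. *Dhh* had a normalized count of 0 in gut replicate 1, against 4.92 to 5.92 in the other gut libraries. The *Gli1* to *Gli3* ratio per kilobase was 0.617 in ENCDC replicate 3, against 0.00614 to 0.0755 in the other ENCDC libraries. *Scube2* had a normalized count of 8.13 in ENCDC replicate 2 and 0 in the others, a pattern that meets the criterion whatever the size of the count. *Wnt5a* had 584 normalized counts in ENCDC replicate 3, against 194 to 246 in the other ENCDC libraries, and 2684 in gut replicate 4, against 2083 to 2161 in the other gut libraries.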

How the results depend on the processing

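The direction of every member was the same in all 15 alternatives. With voom and limma, which the paper used, 0 members were called higher instead of 1. *Dhh* missed the threshold there (log2 fold change 2.78, voom and limma adjusted p = 0.0606). At an unadjusted p under 0.05, 1 member was higher with voom and limma, as it was with edgeR and DESeq2. Leaving out 1 library gave 0 to 1 members called higher and 5 to 7 called lower instead of 8. In those fits the log2 fold change ranged from -2.64 to -1.80 for *Ihh*, from 2.07 to 3.35 for *Dhh*, from -0.49 to -0.30 for *Smo* and from -4.32 to -2.19 for *Gli1*. The cause was not tested. Of the 5 pathway lists, 7 genes were called higher with the replicate block instead of 11, and 7 to 12 when 1 library was left out. Without ENCDC replicate 3, an alternative chosen after seeing the data, 5 of 9 members kept their rank per length in ENCDCs. Libraries with the same replicate number did not deviate together (correlations 0.008, 0.036, -0.025 and -0.006), so the numbers were not taken as a pairing. The replicate block kept the call of all 9 members and gave 2609 genes higher and 3324 lower over all genes, against 3212 and 3946. Low counts limit *Shh*, *Ihh* and *Dhh*, whose libraries held at most 95 counts each.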
